A study of Rattus norvegicus with 12 samples.

Results

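The genes described here encode the chains of collagens and laminins in the fetal rat testis. A probe set of the array was taken when its single annotated gene symbol was Col, a number, a and a number, or Lama, Lamb or Lamc and a number. The rule found 51 genes with 72 probe sets, among 14217 genes with 20826 probe sets of 1 gene symbol and 31099 probe sets in all. Fibrillar collagens (types I, II, III, V, XI, XXIV and XXVII) had 19 probe sets, network collagens (types IV, VIII and X) had 10, the other collagens had 29 and the laminins had 14. A filter on low signal left 54 probe sets for 40 genes in the tests.

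Collagens and laminins are the main structural proteins of the extracellular matrix. Fibrillar collagens form the cables of connective tissue, while network collagens and laminins form sheets in basement membranes. Each collagen molecule is a rope of 3 alpha chains, and each laminin joins an alpha, a beta and a gamma chain. In the fetal testis a basement membrane surrounds the cords that hold Sertoli cells and germ cells. Peritubular cells and Sertoli cells both contribute to that membrane, and the interstitium outside the cords contains fibrillar collagens.

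The tissue was rat testis at embryonic day 16. In the vinclozolin lineage, founder females received intraperitoneal vinclozolin, an antiandrogenic fungicide, at 100 mg/kg per day on pregnancy days 8 to 14. In the control lineage, founders received a vehicle of sesame oil and DMSO over the same days. There were 6 groups of 2 arrays: F1, F2 and F3 embryos of the vinclozolin lineage, and F1, F2 and F3 embryos of the control lineage. F1 embryos were exposed in the womb. Their germ cells gave rise to F2, and F3 was the generation after that. Each array held the RNA of a pool of about 10 testes, so that p-values measured the spread between pools and not between animals. The titles place the F2 and F3 vinclozolin arrays in the vinclozolin lineage, but their protocols describe the mated F1 animals as coming from control lines. The labels do not settle this, and each such array is called by its title. A strain was not given in the sources used here.

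Values are signal intensity on a linear scale, and differences are on the log2(signal + 16) scale as vinclozolin minus control, which understates the change of dim probe sets. A probe set is called lower or higher when limma's moderated test across all 21729 probe sets gave a Benjamini-Hochberg adjusted p under 0.05. The mean of the 3 lineage differences uses the same arrays as the differences within generations. A signal is not comparable between probe sets. In a bulk sample, fewer cells of a type and less RNA per cell cannot be told apart.

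One measure of RNA quality differed between the lineages on every array. The ratio of the 5′ to the 3′ control probe set of beta-actin, which drops when RNA is degraded or labelled short, was 0.260 ± 0.097 in the vinclozolin lineage and 0.453 ± 0.018 in the control lineage (SD, n = 6 each). The exact permutation test gave p = 0.00216, the smallest it can give, and 0.00433 after adjustment over 2 ratios. By generation, the ratio was 0.171 ± 0.030 in F1 vinclozolin and 0.459 ± 0.003 in F1 control testes, 0.233 ± 0.020 in F2 vinclozolin and 0.447 ± 0.034 in F2 control testes, and 0.378 ± 0.025 in F3 vinclozolin and 0.453 ± 0.016 in F3 control testes (SD, n = 2 each). The ratio of Gapdh was 0.814 ± 0.150 in the vinclozolin lineage and 0.986 ± 0.022 in the control lineage (SD, n = 6 each; exact permutation p = 0.0411). Its means in vinclozolin and control testes were 0.684 and 1.00 in F1 and 0.760 and 0.994 in F2. In F3 they were 0.996 and 0.965, with the vinclozolin mean the higher. With the beta-actin ratio as a covariate, limma called 0 collagen or laminin probe sets in every comparison. Between 3 and 5 members then had an unadjusted p under 0.05 in each lineage difference. It also called 0 of all tested probe sets in F1, in F2 and in the mean, and 7 in F3. The ratio did not overlap between the lineages, so its part in the differences below and that of the lineage cannot be told apart.

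The collagen and laminin genes that changed were mostly lower in the vinclozolin lineage. In the mean of the 3 generations, 14 probe sets of 12 genes were lower and 1 was higher. The largest falls were on 1 probe set each of Lamc1, Col6a3, Col4a1 and Col18a1, and Lama5 was the gene that was higher. The other tested probe set of Lamc1, Col6a3 and Col18a1 gave −0.15, −0.11 and 0.03 and was not called. Both of Col4a1 were called lower. Over all tested probe sets 33.3% were called in that comparison, 19.2% lower and 14.1% higher, against 15 of the 54 collagen and laminin probe sets. All 6 vinclozolin arrays lay below all 6 control arrays for 9 of the 54, as they did for 7.73% of all tested probe sets.

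Within generations the count of calls was 10 in F1, 8 in F2 and 3 in F3. In F1, 9 probe sets were lower and 1 was higher, where 23.1% of all tested probe sets were called, 13.7% lower and 9.41% higher. In F2, 6 were lower and 2 were higher, where 14.3% of all were called, 9.65% lower and 4.70% higher. In F3, 3 were lower and 0 were higher, with 15 members at an unadjusted p under 0.05 in either direction, where 3.11% of all were called, 2.06% lower and 1.05% higher. Counted over both directions, the share of members called was near that of all probe sets in F1 and F2. In F3 it was higher but rested on 3 probe sets. By direction the shares were less alike, with 1 of 54 members higher in F1 where 9.41% of all were higher. No probe set was called lower in all 3 generations, 5 were lower in 2 of them, 8 in 1, and 38 had no call in any. The median difference over the tested members was −0.17 in F1, −0.07 in F2 and −0.17 in F3, where the median over all tested probe sets was −0.01 in each. Without 1 of the F1 vinclozolin arrays, whichever it was, the number of calls was 17 in F2 and 12 in F3. In F1 it was 18, all lower, without F1 vinclozolin replicate 1, 6 without F1 control replicate 1 and 4 without F1 control replicate 2. In F2 it was 2 without F2 vinclozolin replicate 2 or either F2 control array. Without either F3 control array or without F3 vinclozolin replicate 2 it was 0 in F3, with 10 to 13 members at an unadjusted p under 0.05. Centring each array on its median moved the median difference of all probe sets by 0.12 in F1 and in F2, by 0.05 in F3 and by 0.10 in the mean. The split in the mean was then 11 lower and 7 higher, in F1 6 lower and 3 higher, and in F2 5 lower and 8 higher.

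**Figure D1:**
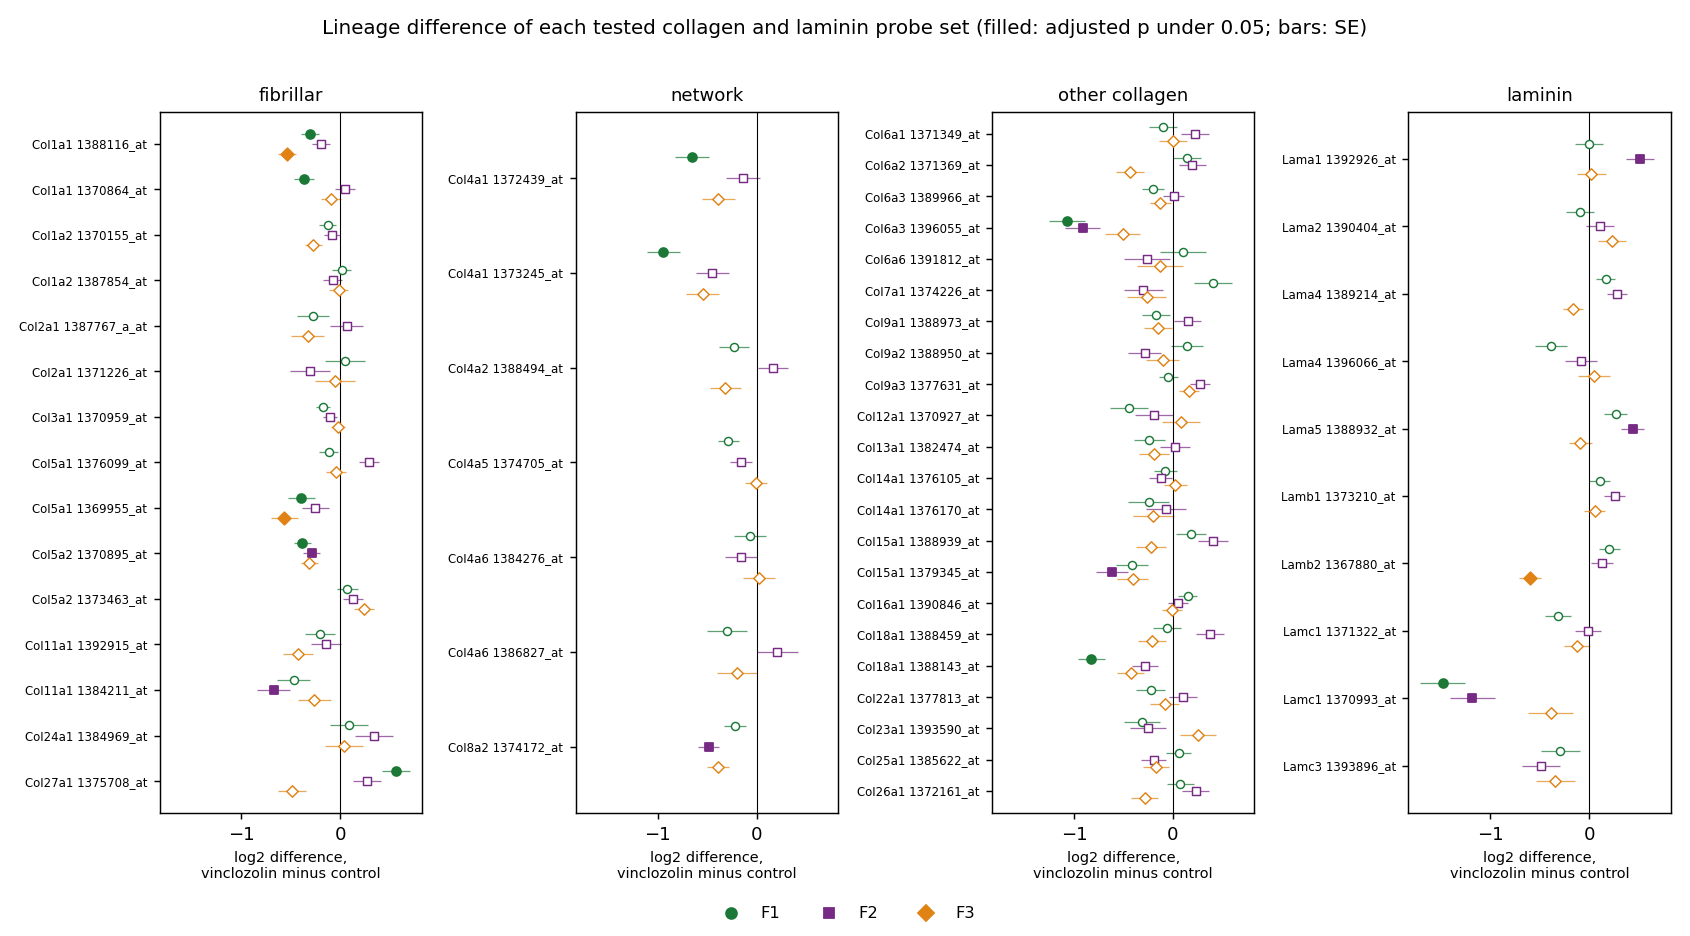
Log2 difference (vinclozolin minus control, horizontal axis) of each of the 54 tested collagen and laminin probe sets, by class, with F1 as circles, F2 as squares and F3 as diamonds; bars are standard errors, and filled symbols have an adjusted p under 0.05. The filled symbols lie left of 0 except for Col27a1 in F1 and for Lama1 and Lama5 in F2.

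Among the fibrillar collagens, chains of types I, V and XI were lower in the vinclozolin lineage, and the lineage difference of Col27a1, called higher in F1, depended on generation. In the mean, 6 of 15 tested probe sets were lower and 0 were higher, where 19.2% of all were lower and 14.1% higher. The 6 belonged to Col1a1, Col1a2, Col5a1, Col5a2 and Col11a1. The counts of each class within generations are to be read against the shares of all tested probe sets given above. In F1, 4 probe sets were lower and 1 was higher, in F2 2 were lower, and in F3 2 were lower. The class median was −0.17 in F1, −0.08 in F2, −0.26 in F3 and −0.14 in the mean. Col5a3 and Col11a2 lay below the filter on all of their probe sets.

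Col1a1 encodes the chain present in 2 copies in each type I collagen molecule, the main collagen of connective tissue. Its probe set 1388116_at had signals of 2745.8 and 2263.4 in F1 vinclozolin testes, against 3006.2 and 3176.6 in F1 control testes. In F2 the signals were 2742.3 and 2973.3 in vinclozolin and 3443.3 and 3131.0 in control testes. In F3 they were 2021.1 and 2066.9 in vinclozolin and 2932.7 and 3014.8 in control testes. The vinclozolin arrays were thus below their controls in each generation. The difference was −0.31 ± 0.09 in F1 (SE; adjusted p = 0.0242), −0.20 in F2 (adjusted p = 0.163) and −0.54 ± 0.09 in F3 (adjusted p = 0.00624), with a mean of −0.35 ± 0.05 (adjusted p = 0.000156). The F1 call was lost without F1 vinclozolin replicate 2 (−0.17; adjusted p = 0.139), without either F1 control array, with median centring (−0.19; adjusted p = 0.122) and with no filter (adjusted p = 0.0516). The F3 call was lost without any 1 of the 4 F3 arrays, with adjusted p from 0.0542 to 0.095. The other Col1a1 probe set, 1370864_at, was lower in F1, with 986.7 and 772.9 in vinclozolin against 1120.1 and 1141.7 in control testes (−0.37 ± 0.10; adjusted p = 0.018). That call was lost without F1 vinclozolin replicate 2 (−0.19; adjusted p = 0.116), without either F1 control array and with median centring (−0.25; adjusted p = 0.0781). It differed by 0.04 in F2 and by −0.10 in F3, and neither passed the test.

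Col1a2 encodes the partner chain of type I collagen. Its probe set 1370155_at was lower in the mean of the generations (−0.16 ± 0.05; adjusted p = 0.0178), with F3 signals of 1925.0 and 2083.3 in vinclozolin against 2369.1 and 2485.1 in control testes. The call was lost with median centring and without any 1 of 5 arrays, which were F1 control replicate 2, F2 vinclozolin replicate 1, F2 control replicate 1, F3 vinclozolin replicate 1 and F3 control replicate 2. The other probe set, 1387854_at, gave −0.03 in the mean and was not called. Col3a1 forms type III collagen, which is often found in the same fibrils as type I. Its signals were 4396.6 and 4012.8 in F1 vinclozolin against 4705.6 and 4767.8 in F1 control testes, a difference of −0.17 ± 0.07 with an adjusted p of 0.0956. In F3 the Col3a1 arrays of both lineages overlapped, and the mean of −0.10 was not called (adjusted p = 0.0777). Under quantile normalization Col3a1 was called lower in F1 (−0.41, adjusted p = 0.00101) and in the mean (−0.27, adjusted p = 0.000207). Without F1 vinclozolin replicate 1 its difference was −0.24 in F1 and −0.12 in the mean.

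Type V collagen regulates the diameter of type I fibrils, and 1 probe set of each of its chains Col5a1 and Col5a2 was lower. For Col5a2, probe set 1370895_at had 1211.5 and 1253.5 in F1 vinclozolin against 1537.4 and 1696.2 in F1 control testes. Its F2 signals were 1277.0 and 1239.5 in vinclozolin and 1534.3 and 1554.3 in control testes, and its F3 signals were 1320.9 and 1203.8 in vinclozolin and 1667.4 and 1487.9 in control testes. All 6 vinclozolin arrays lay below all 6 control arrays. The difference was −0.39 ± 0.09 in F1 (adjusted p = 0.00448), −0.29 ± 0.09 in F2 (adjusted p = 0.0326) and −0.32 in F3 (adjusted p = 0.0577), with a mean of −0.33 ± 0.05 (adjusted p = 0.000135). The F1 call was lost without F1 control replicate 2 (−0.32; adjusted p = 0.0794). The F2 call was lost without any 1 of the F2 arrays, with median centring (−0.18; adjusted p = 0.184) and with no filter (adjusted p = 0.0518). The second Col5a2 probe set, 1373463_at, gave 0.07, 0.13 and 0.24 in F1, F2 and F3 and was not called. Under median centring it was called higher in the mean.

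For Col5a1, probe set 1369955_at had 311.9 and 236.6 in F1 vinclozolin against 358.9 and 365.4 in F1 control testes, and 278.8 and 296.7 in F2 vinclozolin against 352.4 and 339.6 in F2 control testes. The F3 signals were 264.1 and 197.4 in vinclozolin and 345.8 and 346.6 in control testes. No vinclozolin array reached any control array. The difference was −0.39 ± 0.13 in F1 (adjusted p = 0.046), −0.25 in F2 (adjusted p = 0.23) and −0.57 ± 0.13 in F3 (adjusted p = 0.0343), with a mean of −0.40 ± 0.08 (adjusted p = 0.00101). Without F1 vinclozolin replicate 2 the F1 difference was −0.21, and without F3 vinclozolin replicate 2 the F3 difference was −0.37, neither of them called. Each call was also lost without either control array of its generation and with no filter, and the F1 call with a pseudocount of 4, array weights or median centring (−0.28; adjusted p = 0.13). Leaving out single arrays of other generations also took away the F1 call (6 of 8 arrays) and the F3 call (4 of 8 arrays), with the differences unmoved. The other Col5a1 probe set, 1376099_at, gave −0.12, 0.29 and −0.04 in F1, F2 and F3 and was not called. Under median centring and with array weights it was called higher in F2.

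Col11a1 encodes a chain of type XI collagen, a minor component of cartilage-type fibrils. Its probe set 1384211_at had 21.5 and 25.0 in F1 vinclozolin against 43.8 and 33.5 in F1 control testes, and 19.3 and 18.2 in F2 vinclozolin against 40.7 and 38.3 in F2 control testes. In F3 the signals were 41.4 and 32.2 in vinclozolin and 48.3 and 46.0 in control testes. The vinclozolin arrays were the lower ones in each generation, and the difference was called in F2 (−0.68 ± 0.17; adjusted p = 0.0156). That call was lost without F2 vinclozolin replicate 2 (adjusted p = 0.0862) or either F2 control array (adjusted p = 0.104 and 0.0719). The mean was −0.47 ± 0.10 (adjusted p = 0.00183), and that of the second probe set, 1392915_at, was −0.26 ± 0.09 (adjusted p = 0.0328). The call of 1392915_at was lost with quantile normalization, median centring, array weights or no filter, and without any 1 of 7 of the 12 arrays (either F1 control, either F2 vinclozolin, F2 control replicate 2, F3 vinclozolin replicate 2 or F3 control replicate 2). The cartilage and bone marker list had 6 of 10 genes on the array, and 3 of their 9 probe sets passed the filter. Its summed signal was 47.3 to 73.9 in F1 vinclozolin and 80.3 to 97.6 in F1 control arrays. In F2 it was 36.1 to 49.5 in vinclozolin and 63.1 to 69.3 in control arrays. In F3 the lineages overlapped, with 57.2 to 91.3 in vinclozolin and 49.3 to 61.1 in control arrays. A probe set of Hapln1 was called lower in the mean (−0.44 ± 0.13, adjusted p = 0.0161), and the 2 tested probe sets of Acan were not called. The part of such cells in the Col11a1 values was not tested. Both tested probe sets of Col2a1, the main cartilage collagen, gave −0.18 and −0.11 in the mean and were not called.

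Col27a1 encodes a fibrillar collagen best known from cartilage. Its signals were 124.4 and 102.0 in F1 vinclozolin against 75.0 and 68.0 in F1 control testes, and 93.3 and 120.5 in F2 vinclozolin against 86.2 and 84.9 in F2 control testes. In F3 they were 58.4 and 56.1 in vinclozolin against 83.4 and 90.8 in control testes. The vinclozolin arrays were the higher ones in F1 and F2 and the lower ones in F3. The difference was 0.56 ± 0.14 in F1 (adjusted p = 0.0108), 0.27 in F2 (adjusted p = 0.236) and −0.49 in F3 (adjusted p = 0.0763). The F1 call was lost without F1 vinclozolin replicate 1 (0.43; adjusted p = 0.0512) or F1 control replicate 2 (0.50; adjusted p = 0.0953). The test of whether the lineage difference depended on generation was passed (adjusted p = 0.0231), as it was for 2.60% of all tested probe sets and for 2 of the 54 members. It was no longer passed with no filter, or without either F1 control array or any 1 of the F3 arrays. Col24a1, the remaining fibrillar gene, gave 0.15 in the mean and was not called.

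**Figure D2:**
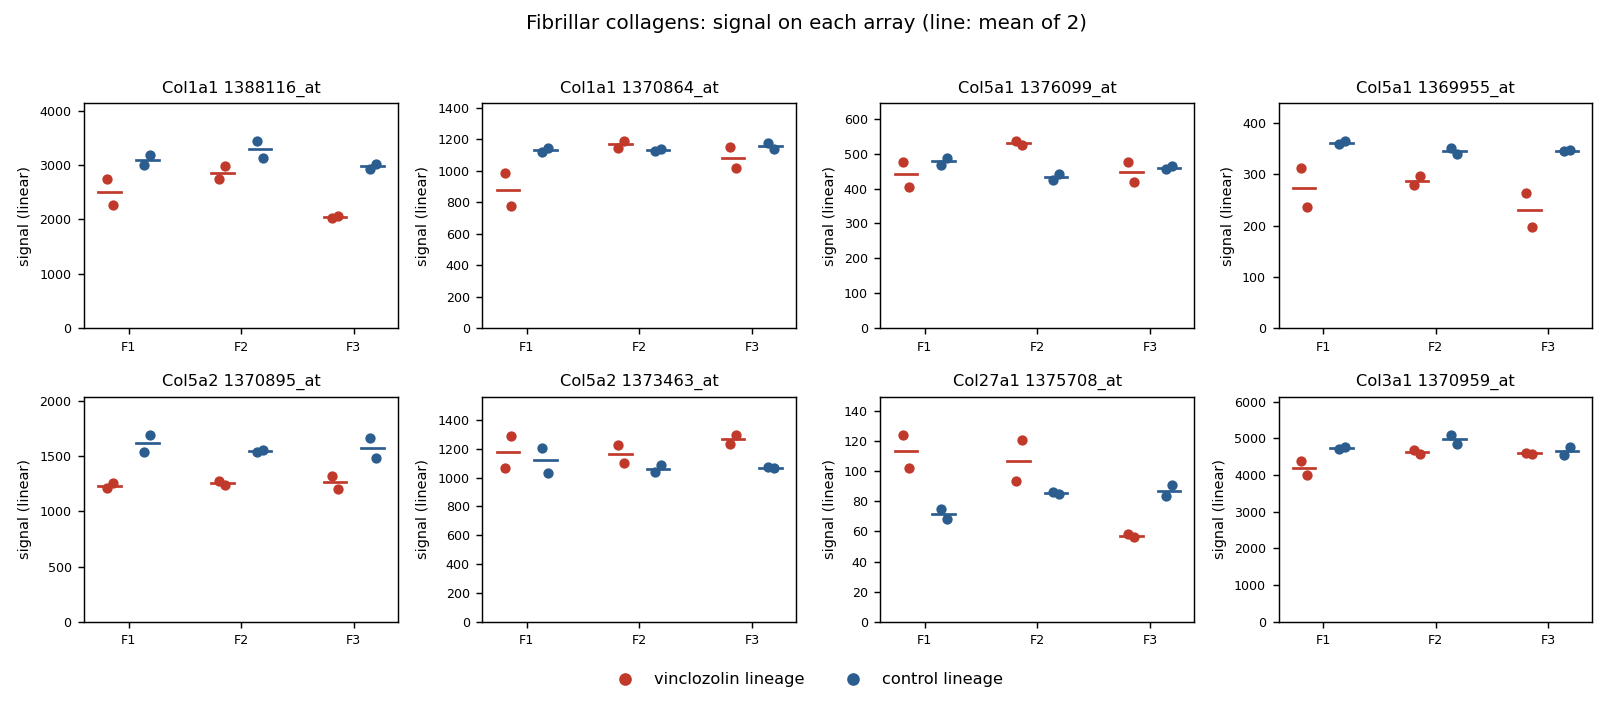
Signal (linear, vertical axis from 0) of 8 fibrillar collagen probe sets on each of the 12 arrays, with vinclozolin to the left of control within F1, F2 and F3 and lines at the mean of 2 arrays. Col5a2 1370895_at lies lower on all vinclozolin arrays while Col5a2 1373463_at does not, and Col27a1 is above its controls in F1 and F2 and below them in F3.

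Among the network collagens, Col4a1 and Col8a2 were lower in the vinclozolin lineage, and the partner chain Col4a2 was not called. In the mean, 3 of 7 tested probe sets were lower and 0 were higher, where 19.2% of all were lower and 14.1% higher. In F1 2 were lower, both of Col4a1, in F2 1 was lower, and in F3 none was called, although 3 had an unadjusted p under 0.05. The class median was −0.29 in F1, −0.16 in F2, −0.32 in F3 and −0.15 in the mean. Col4a4, Col8a1 and Col10a1 lay below the filter.

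Col4a1 and Col4a2 encode the chains of the common type IV collagen, 2 copies of Col4a1 to 1 of Col4a2 in each molecule, and they lie head to head on chromosome 16. In RefSeq's GRCr8 annotation their starts are 77 bases apart on opposite strands, so that the 300-base windows around them share 176 bases. The window of Col4a1, from 250 bases before its start to 50 after, is shown because both genes' differences are measured below. It lies at chr16:84885347-84885646 on the plus strand, with a GC content of 75.0%. The capitals mark matches to CCAAT or GGGCGG on either strand, and the Col4a1 start is at 84885597 and that of Col4a2 at 84885520.
Col4a1: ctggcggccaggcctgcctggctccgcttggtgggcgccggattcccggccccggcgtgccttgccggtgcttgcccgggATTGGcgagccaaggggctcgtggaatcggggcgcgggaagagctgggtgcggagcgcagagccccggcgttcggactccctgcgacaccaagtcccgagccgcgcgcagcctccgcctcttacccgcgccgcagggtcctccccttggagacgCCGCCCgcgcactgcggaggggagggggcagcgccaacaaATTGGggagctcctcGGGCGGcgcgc
The window holds 2 matches to the CCAAT box, 2 to the GC box and none to TATAAA. Of the 44 member promoters in the table, from 41 genes, 54.5% hold GGGCGG, 29.5% hold CCAAT and 11.4% hold TATAAA on either strand. Of all 33469 promoters of this length, 33.1% hold GGGCGG, 37.5% hold CCAAT and 14.2% hold TATAAA. These matches describe the sequence and were not tested as sites.

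Probe set 1373245_at of Col4a1 had 856.5 and 481.5 in F1 vinclozolin against 1193.3 and 1313.1 in F1 control testes. Its F2 signals were 906.0 and 903.8 in vinclozolin and 1235.1 and 1243.2 in control testes, and its F3 signals were 847.4 and 811.4 in vinclozolin and 1186.4 and 1248.7 in control testes. Every vinclozolin array was below every control array. The difference was −0.94 ± 0.17 in F1 (adjusted p = 0.00102), −0.45 in F2 (adjusted p = 0.0916) and −0.54 in F3 (adjusted p = 0.0917), with a mean of −0.65 ± 0.10 (adjusted p = 0.000148). The other Col4a1 probe set, 1372439_at, had 1189.5 and 659.4 in F1 vinclozolin against 1395.8 and 1413.2 in F1 control testes (−0.65 ± 0.17; adjusted p = 0.0118), and a mean of −0.39 ± 0.10 (adjusted p = 0.00623). Its arrays did not overlap between the lineages either, and its F1 call was lost without either F1 control array. The 2 F1 vinclozolin arrays differed widely at both probe sets, replicate 2 being the lower.

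Col4a2 had 664.0 and 418.3 in F1 vinclozolin against 618.1 and 626.3 in F1 control testes. Its F2 signals were 650.5 and 772.0 in vinclozolin and 632.4 and 629.0 in control testes, and its F3 signals were 514.0 and 461.5 in vinclozolin and 579.4 and 643.8 in control testes. The lineages overlapped in F1, and the vinclozolin arrays were the higher in F2 and the lower in F3. The difference was −0.23, 0.16 and −0.32 in F1, F2 and F3, with none called. Array weights led to a call of lower in F3 (−0.32, adjusted p = 0.0416). Without F1 vinclozolin replicate 1 the Col4a2 difference was −0.56 in F1 and −0.24 in the mean. Within arrays, the difference of Col4a1 1373245_at from Col4a2 ran from 0.20 to 0.79 in vinclozolin and from 0.93 to 1.05 in control arrays, with no overlap. Its mean lineage difference was −0.52, with an exact permutation p of 0.00926, the smallest that 216 splits within generations allow, and 0.0185 after adjustment over 16 such pairs. For the other Col4a1 probe set against Col4a2 it was −0.27 (exact permutation p = 0.0185, adjusted 0.0329). This within-array test was chosen after the values had been seen.

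Col4a5 and Col4a6 encode a type IV pair of other basement membranes, and their starts are 1415 bases apart. Col4a5 gave −0.29 in F1 (adjusted p = 0.0727) and −0.01 in F3, and both Col4a6 probe sets gave mean differences of −0.07 and −0.10 that were not called. Col8a2 encodes a chain of type VIII collagen, a short-chain collagen of endothelial basement membranes such as Descemet's membrane of the eye. Its signals were 314.9 and 265.1 in F1 vinclozolin against 340.1 and 338.8 in F1 control testes, and 251.9 and 241.0 in F2 vinclozolin against 354.1 and 349.4 in F2 control testes. In F3 they were 290.7 and 241.6 in vinclozolin against 350.6 and 353.7 in control testes. No vinclozolin array overlapped with a control array. The difference was −0.22 in F1 (adjusted p = 0.163), −0.49 ± 0.11 in F2 (adjusted p = 0.00837) and −0.39 in F3 (adjusted p = 0.0681), with a mean of −0.37 ± 0.06 (adjusted p = 0.000439). The F2 call was lost without F2 vinclozolin replicate 2 or either F2 control array.

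**Figure D3:**
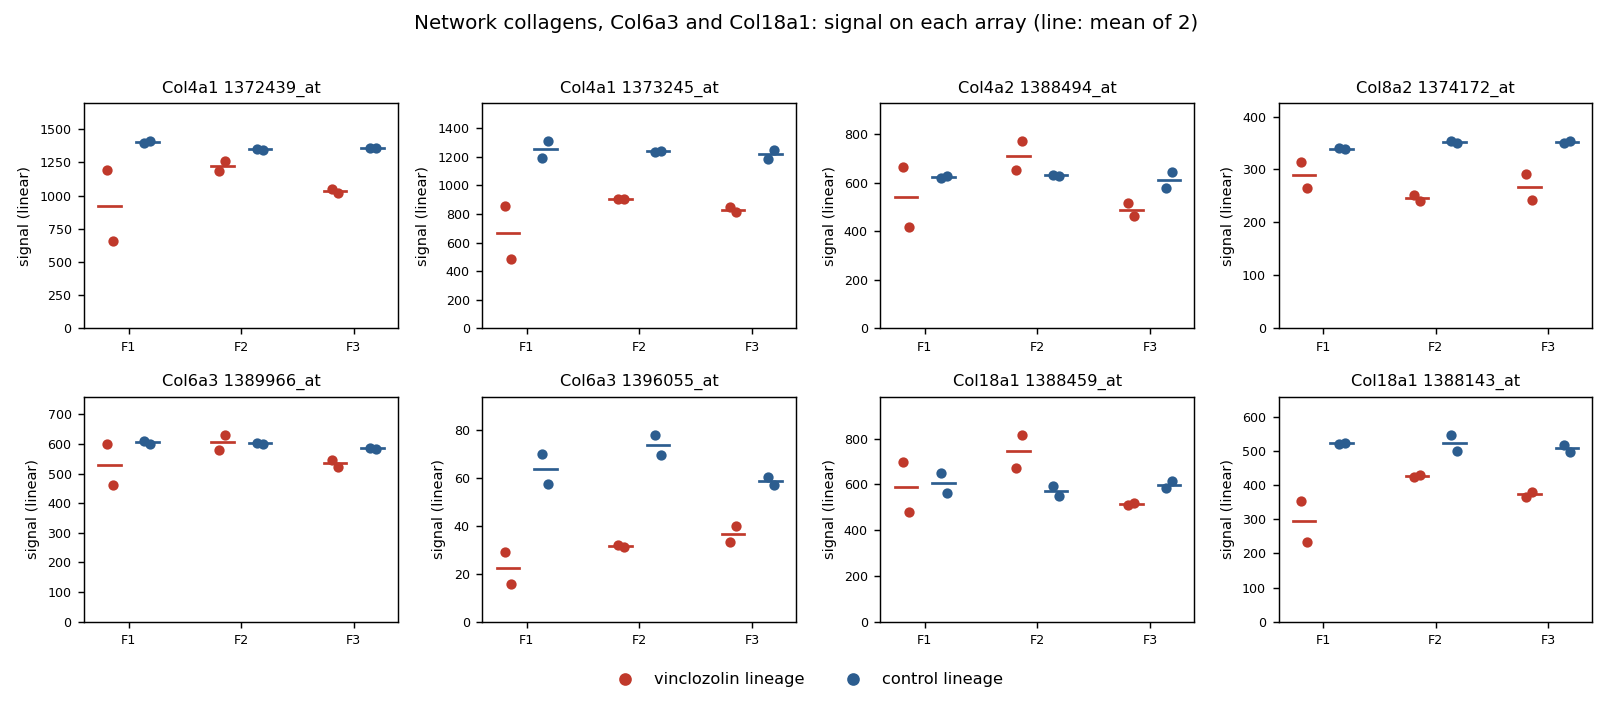
Signal (linear, vertical axis from 0) of 4 network collagen probe sets and of both probe sets of Col6a3 and Col18a1 on each of the 12 arrays, with vinclozolin to the left of control within F1, F2 and F3 and lines at the mean of 2 arrays. Both Col4a1 probe sets are lower on all vinclozolin arrays, and Col4a2 overlaps in F1 and is higher in F2.

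The laminins moved in both directions: 1 probe set of Lamc1 had the largest fall of all collagen and laminin probe sets, while Lama1 and Lama5 were higher in F2 and Lamb2 was lower in F3. Of 10 tested laminin probe sets, 2 were lower and 1 was higher in the mean, where 19.2% of all were lower and 14.1% higher. In F1 1 was lower, in F2 1 was lower and 2 were higher, and in F3 1 was lower. The class median was −0.05 in F1, 0.12 in F2, −0.11 in F3 and −0.00 in the mean. Lama3 and Lamb3, chains of epithelial laminin of the skin, lay below the filter.

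Lamc1 encodes the gamma chain shared by most laminins. Its probe set 1370993_at had 119.3 and 63.8 in F1 vinclozolin against 284.9 and 262.9 in F1 control testes. Its F2 signals were 141.2 and 75.8 in vinclozolin and 260.4 and 251.7 in control testes, and its F3 signals were 202.6 and 173.0 in vinclozolin and 254.0 and 246.9 in control testes. All vinclozolin arrays lay below all control arrays, and the gap was narrowest in F3. The difference was −1.48 ± 0.23 in F1 (adjusted p = 0.000327), −1.18 ± 0.23 in F2 (adjusted p = 0.00313) and −0.39 in F3 (adjusted p = 0.39), with a mean of −1.02 ± 0.13 (adjusted p = 3.84e-05). The test of dependence on generation was not passed (adjusted p = 0.151). Without F2 vinclozolin replicate 2 the F2 difference was −0.79 and was not called (adjusted p = 0.063).

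The second Lamc1 probe set, 1371322_at, had 666.7 and 476.0 in F1 vinclozolin against 712.1 and 698.9 in F1 control testes. In F2 it had 640.4 and 760.9 in vinclozolin against 708.4 and 698.5 in control testes, and in F3 698.0 and 614.5 in vinclozolin against 710.2 and 721.0 in control testes. It was not called in any generation, with differences of −0.32 (adjusted p = 0.091), −0.01 and −0.12 in F1, F2 and F3. It was called lower in F1 without F1 vinclozolin replicate 1 (−0.55; adjusted p = 0.000792) and under quantile normalization (−0.38; adjusted p = 0.0438). Lamc3, a gamma chain of more restricted laminins, had 53.5 and 43.1 in F2 vinclozolin against 72.4 and 75.3 in F2 control testes and overlapped in F1. Its mean was −0.37 ± 0.11 (adjusted p = 0.0189), and it was not called under median centring or quantile normalization, or without F1 control replicate 1, F2 vinclozolin replicate 2 or F3 vinclozolin replicate 1.

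Lama1 encodes the alpha chain of the embryonic laminin of early basement membranes. It had 182.8 and 189.0 in F2 vinclozolin against 113.9 and 137.7 in F2 control testes (0.51 ± 0.14; adjusted p = 0.026), and its lineages overlapped in F1 and F3, with differences of −0.00 and 0.02. Lama5 encodes the alpha chain of the laminins found in most mature epithelial and vascular basement membranes. Its tested probe set 1388932_at had 133.7 and 143.6 in F1 vinclozolin against 118.4 and 107.0 in F1 control testes (0.27; adjusted p = 0.119). The F2 signals were 143.5 and 145.4 in vinclozolin and 101.6 and 102.9 in control testes (0.44 ± 0.12; adjusted p = 0.0214), and in F3 the lineages overlapped. The mean of 0.21 ± 0.07 was called higher (adjusted p = 0.0298). That call was lost without any 1 of 7 of the 12 arrays, with adjusted p from 0.051 to 0.0949. They were F1 control replicate 2, F2 vinclozolin replicate 2, both F2 controls, F3 vinclozolin replicate 1 and both F3 controls. The F2 calls of Lama1 and Lama5 were lost without any 1 of the F2 arrays.

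Lama4, the alpha chain of vascular and mesenchymal laminins, and Lama2, that of muscle and nerve, were not called. Lama4 1389214_at gave 0.17, 0.28 and −0.16 in F1, F2 and F3, and Lama4 1396066_at gave −0.39, −0.08 and 0.05. In F2 Lama4 1389214_at was called higher under median centring (0.40, adjusted p = 0.0163) and with array weights (0.28, adjusted p = 0.0459). Median centring also led to a call of higher in its mean (0.19, adjusted p = 0.0194). The endothelial marker list had 6 of 7 genes on the array, with a summed signal from 954.9 to 1162.9 in vinclozolin and from 1007.0 to 1108.0 in control arrays.

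Lamb1 encodes the beta chain of most embryonic laminins and had 1360.9 and 1523.2 in F2 vinclozolin against 1221.7 and 1179.7 in F2 control testes. Its mean of 0.14 ± 0.06 was not called (adjusted p = 0.0922), but it was called under median centring (0.24; adjusted p = 0.00655). Lamb2 encodes the beta chain of neuromuscular, glomerular and arterial basement membranes. It had 363.0 and 337.3 in F1 vinclozolin against 281.0 and 323.6 in F1 control testes, and 273.3 and 304.9 in F2 vinclozolin against 257.4 and 266.9 in F2 control testes. In F3 it had 223.0 and 194.3 in vinclozolin against 334.4 and 312.8 in control testes. The vinclozolin arrays were the higher in F1 and F2 and the lower in F3. The difference was 0.20 in F1, 0.13 in F2 and −0.60 ± 0.11 in F3 (adjusted p = 0.00945), and it depended on generation (adjusted p = 0.0155). The F3 call was lost without F3 vinclozolin replicate 2 or either F3 control array, and the dependence on generation was not passed without any 1 of these or F1 control replicate 1.

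**Figure D4:**
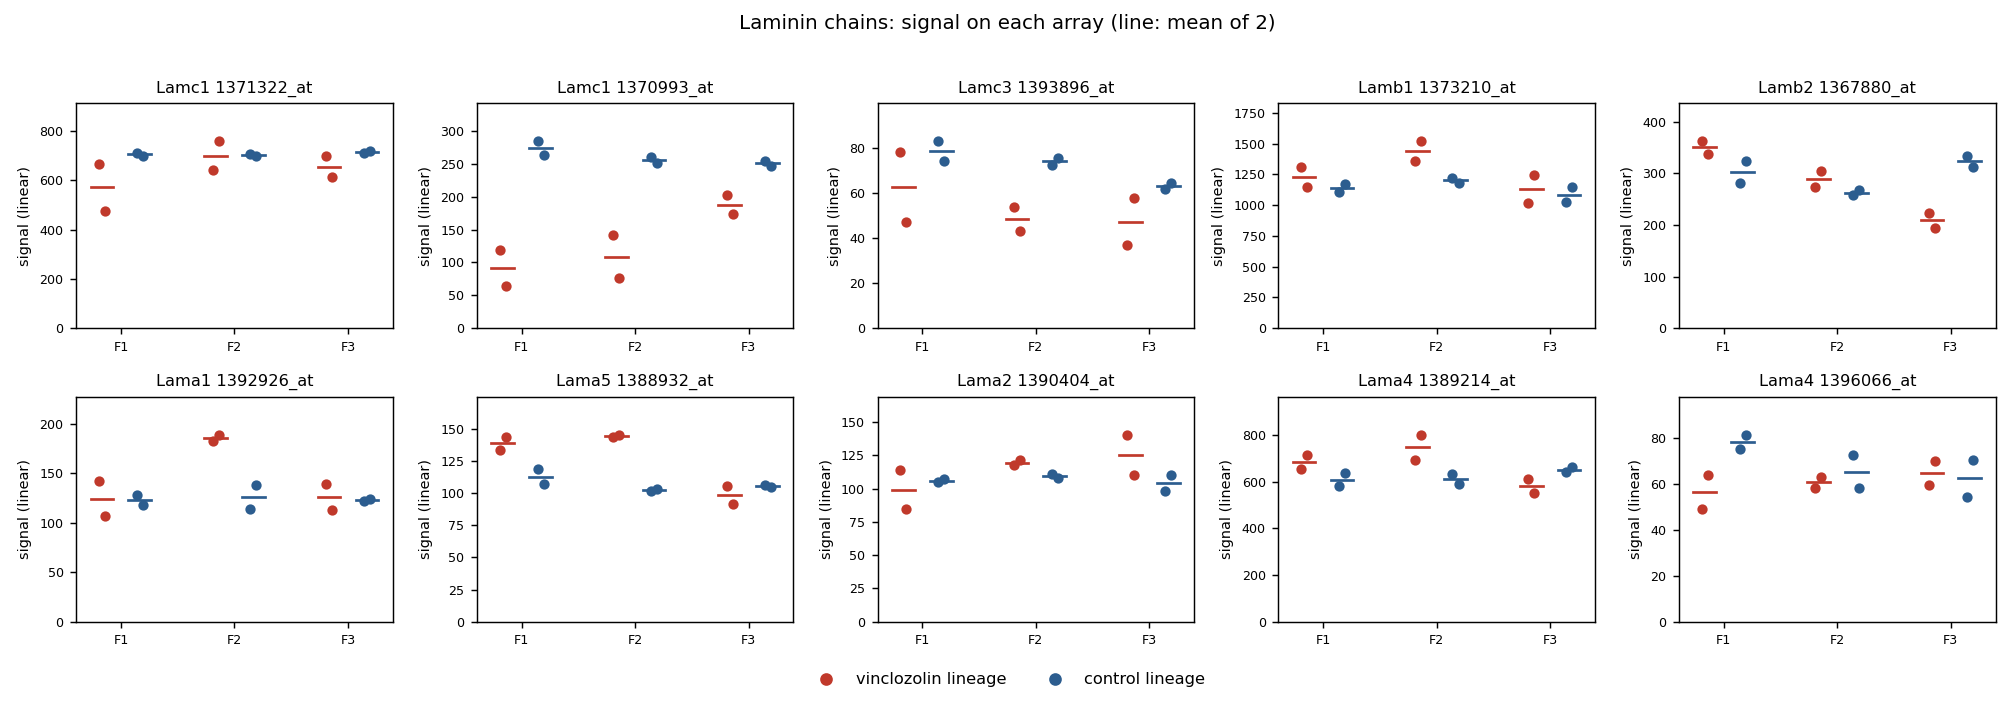
Signal (linear, vertical axis from 0) of the 10 tested laminin probe sets on each of the 12 arrays, with vinclozolin to the left of control within F1, F2 and F3 and lines at the mean of 2 arrays. Lamc1 1370993_at is lower on all vinclozolin arrays, Lama1 and Lama5 are higher in F2, and Lamb2 is lower in F3.

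The other collagens include the beaded filaments of type VI, the fibril-associated collagens, the transmembrane collagens and the multiplexins. In the mean, 3 of 22 tested probe sets were lower and 0 were higher, where 19.2% of all were lower and 14.1% higher. The 3 belonged to Col6a3, Col15a1 and Col18a1. In F1 2 were lower, in F2 2, and in F3 none, with 4 at an unadjusted p under 0.05. The class median was −0.09 in F1, −0.03 in F2, −0.16 in F3 and −0.08 in the mean. Col6a5, Col17a1, Col19a1 and Col20a1 lay below the filter.

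Type VI collagen forms beaded filaments close to cells, and Col6a3 is its longest chain. Col6a3 1396055_at had 29.1 and 15.7 in F1 vinclozolin against 70.0 and 57.2 in F1 control testes. Its F2 signals were 32.0 and 31.2 in vinclozolin and 78.0 and 69.4 in control testes, and its F3 signals were 33.2 and 39.7 in vinclozolin and 60.2 and 56.9 in control testes. The 6 vinclozolin arrays all lay below the 6 control arrays. The difference was −1.07 ± 0.18 in F1 (adjusted p = 0.000648), −0.91 ± 0.18 in F2 (adjusted p = 0.00363) and −0.51 in F3 (adjusted p = 0.137), with a mean of −0.83 ± 0.10 (adjusted p = 2.91e-05). The second Col6a3 probe set, 1389966_at, had 598.4 and 459.9 in F1 vinclozolin against 610.8 and 601.0 in F1 control testes. It gave −0.20, 0.01 and −0.13 in F1, F2 and F3 and was not called. Without F1 vinclozolin replicate 1 the difference of this probe set was −0.39 in F1 and −0.17 in the mean. The partner chains Col6a1 and Col6a2 gave means of 0.04 and −0.03 and were not called.

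Col18a1 and Col15a1 encode the multiplexins, collagens of vascular and epithelial basement membrane zones. Col18a1 1388143_at had 352.8 and 235.0 in F1 vinclozolin against 521.3 and 524.0 in F1 control testes. Its F2 signals were 424.1 and 431.0 in vinclozolin and 548.5 and 501.3 in control testes, and its F3 signals were 366.9 and 380.6 in vinclozolin and 518.3 and 497.9 in control testes. The lineages did not overlap on any array. The difference was −0.82 ± 0.13 in F1 (adjusted p = 0.00051), −0.28 in F2 and −0.43 in F3 (adjusted p = 0.097), with a mean of −0.51 ± 0.08 (adjusted p = 0.000152). The other Col18a1 probe set, 1388459_at, gave −0.06, 0.37 and −0.21 and was not called. In F2 it was called higher under median centring (0.48, adjusted p = 0.0239) and with array weights (0.37, adjusted p = 0.0346). Without F1 vinclozolin replicate 1 its F1 difference was −0.33.

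Col15a1 1379345_at had 44.3 and 59.6 in F2 vinclozolin against 91.9 and 83.6 in F2 control testes (−0.62 ± 0.16; adjusted p = 0.0187), with a mean of −0.48 ± 0.09 (adjusted p = 0.00108) and no overlap between the lineages. The F2 call was lost without F2 vinclozolin replicate 1 (−0.46; adjusted p = 0.118) or either F2 control array (adjusted p = 0.136 and 0.0712). Its other probe set, 1388939_at, gave 0.18, 0.41 and −0.22 in F1, F2 and F3 and was not called. Under median centring and with array weights that probe set was called higher in F2. The remaining genes, which include Col9a1, Col9a2 and Col9a3 of cartilage-type fibrils, Col12a1, Col14a1, Col16a1 and Col22a1, the transmembrane Col13a1, Col23a1 and Col25a1, and Col6a6, Col7a1 and Col26a1, were not called in any generation. Under median centring Col9a3 was called higher in F2, and Col9a3 and Col16a1 in the mean.

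Many genes had 2 probe sets that gave different answers. Of 14 genes with 2 tested probe sets, 8 had 1 called lower in the mean and the other not called, 2 had both called lower and 4 had neither. The difference between the 2 probe sets was compared between lineages within arrays. This removes an effect that is equal for both on the log2(signal + 16) scale. A shared fold change does not cancel fully where 1 of the 2 is dim. For Lamc1, 1371322_at over 1370993_at ran from 1.71 to 3.08 on the log2 scale in vinclozolin and from 1.27 to 1.49 in control arrays. The lineages did not overlap for 7 genes, which were Lamc1, Col6a3, Col15a1, Col18a1, Col5a1, Col5a2 and Col4a1. The share of such splits over all genes with 2 tested probe sets was not computed, so this count has no background beside it. The mean shift was 0.87 for Lamc1, 0.72 for Col6a3, 0.60 for Col15a1, 0.54 for Col18a1, 0.45 for Col5a1, −0.48 for Col5a2 and 0.25 for Col4a1. Each had an exact permutation p of 0.00926, the smallest possible, and 0.0185 after adjustment over the 16 pairs. Col1a1 and Col1a2, each with 1 probe set called lower, did not pass this test after adjustment. Their exact permutation p was 0.0463 and 0.0741, adjusted 0.0741 and 0.108. The shift was 1.16 in F1, 1.17 in F2 and 0.27 in F3 for Lamc1, and 0.87 in F1, 0.92 in F2 and 0.38 in F3 for Col6a3. In F1, F2 and F3 it was 0.59, 1.02 and 0.19 for Col15a1, and 0.76, 0.65 and 0.22 for Col18a1. For Col4a1 it was 0.29, 0.31 and 0.16. The shift was not smallest in F3 for Col5a1 (0.27, 0.54 and 0.53) or for Col5a2 (−0.46, −0.42 and −0.56). The beta-actin ratio differed least in F3. Where each probe set lies along its transcript was not used here, and the part of RNA quality in these splits was not tested.

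**Figure D5:**
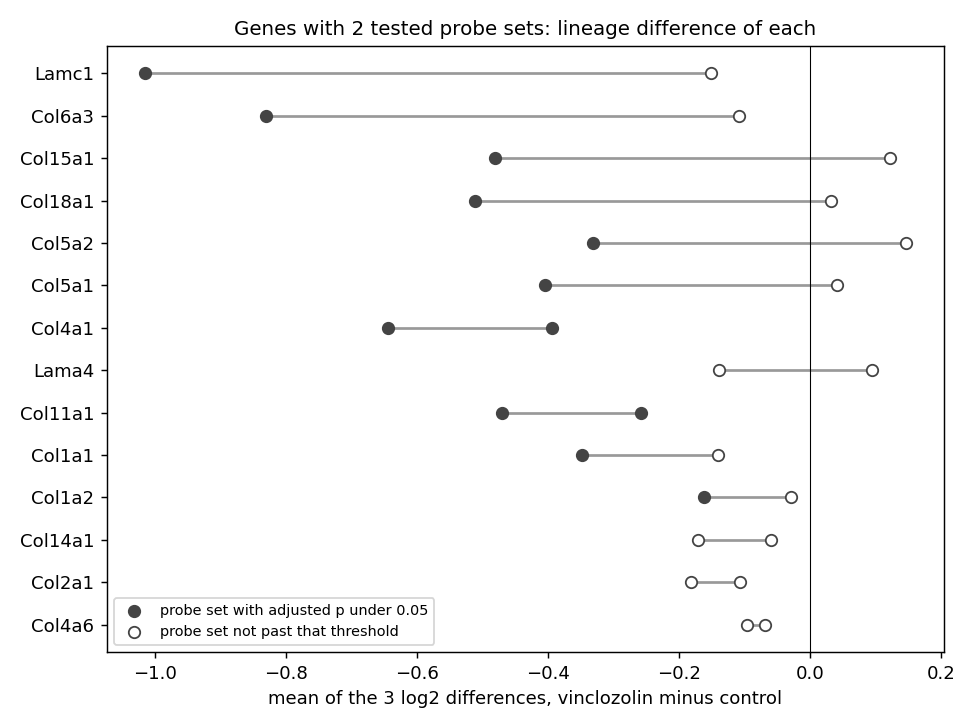
Mean of the 3 lineage differences (log2, vinclozolin minus control, horizontal axis) of each probe set of the 14 genes with 2 tested probe sets, joined by a line per gene; filled circles have an adjusted p under 0.05. In Lamc1 the 2 circles lie at −1.02 and −0.15, and in 8 genes 1 circle is filled and the other is not.

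No collagen or laminin probe set was called among the control groups. The test among F1, F2 and F3 control arrays was passed by 0 members in limma, with 1 at an unadjusted p under 0.05, and by 0 (0%) of all tested probe sets. The pooled SD of the members between 2 arrays was 0.247 in F1 vinclozolin against 0.101 in F1 control, 0.173 in F2 vinclozolin against 0.086 in F2 control, and 0.156 in F3 vinclozolin against 0.115 in F3 control on the log2 scale.

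The counts of 4 lists of related genes are to be read against the shares of all tested probe sets, 33.3% called in the mean (19.2% lower, 14.1% higher), 23.1% in F1, 14.3% in F2 and 3.11% in F3. Of 13 listed receptors for collagens and laminins 11 were on the array, with 20 tested probe sets. In the mean 9 were lower and 0 were higher, and the count was 8 lower and 1 higher in F1, 7 lower in F2 and 4 lower in F3. Dag1, the precursor of dystroglycan, a laminin receptor, was lower in the mean on 3 probe sets, by −1.62 ± 0.11, −1.56 ± 0.10 and −0.90 ± 0.06 (adjusted p = 2.19e-07, 1.43e-07 and 2.45e-07), and all 3 were also called in each generation. Its other probe set gave 0.02 in the mean and was not called (adjusted p = 0.893). Itga6, the alpha subunit of 2 laminin-binding integrins, was lower by −1.12 ± 0.12 and −0.69 ± 0.09 on 2 probe sets, while its 2 others gave −0.07 and 0.01 and were not called. Ddr1, a collagen receptor kinase, was lower by −0.95 ± 0.12 and −0.28 ± 0.06 on its 2 probe sets. Itgb1, the common beta subunit, was lower by −0.29 ± 0.05 in the mean on 1 probe set (adjusted p = 0.000834), while the other gave 0.03 and was not called (adjusted p = 0.715).

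The basement membrane partners had 7 tested probe sets for 5 genes, of which 3 were lower in the mean and 0 were higher. Nid1, nidogen, which links laminin to type IV collagen, was lower on both probe sets (−0.56 ± 0.10 and −0.39 ± 0.05; adjusted p = 0.000658 and 6.7e-05), and Nid2 was lower by −0.25 ± 0.07 (adjusted p = 0.014). By generation, 3 were lower and 1 higher in F1, 1 lower and 1 higher in F2, and 3 lower in F3. Sparc, a collagen-binding matrix protein, gave 0.32 in F1 (adjusted p = 0.0341) and −0.46 in F3 (adjusted p = 0.0249) on 1 probe set. Its other probe set gave 0.13, 0.03 and −0.07 in F1, F2 and F3 and was not called. Hspg2, perlecan, was lower in F3 by −0.69 (adjusted p = 0.0242).

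Genes of collagen biosynthesis had 4 of 21 tested probe sets lower and 2 higher in the mean, 1 lower and 1 higher in F1, 0 in F2 and 1 lower in F3. Bmp1, which removes the C-propeptide of fibrillar procollagen, was lower by −0.44 ± 0.10 on 1 probe set (adjusted p = 0.00384), while the other gave 0.13 and was not called (adjusted p = 0.125). Both called probe sets of Loxl2, which cross-links collagen, were lower by −0.32 and −0.22. Ppib, a proline isomerase of collagen folding, was higher by 0.29 ± 0.05 (adjusted p = 0.000846), and P4ha2, a subunit of prolyl hydroxylase, was higher by 0.20 ± 0.07 (adjusted p = 0.029).

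Matrix proteases and their inhibitors had 6 of 15 tested probe sets lower and 2 higher in the mean, 4 lower and 2 higher in F1, 3 lower and 2 higher in F2 and 1 lower in F3. Timp3, a matrix-bound inhibitor, was lower on 2 probe sets (−0.70 ± 0.13 and −0.43 ± 0.10) and higher on another (0.28 ± 0.05), all with an adjusted p of 0.00278 or less, and its other probe set gave −0.10 and was not called. Timp2 was lower by −0.53 ± 0.12 on 1 probe set (adjusted p = 0.00248), and the other gave −0.06 and was not called. Mmp14, a membrane-bound collagenase, was lower by −0.39 ± 0.06 on 1 probe set (adjusted p = 0.000113), and the other gave 0.10 and was not called (adjusted p = 0.4). Timp1 was higher by 0.36 ± 0.06 (adjusted p = 0.000599).

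Marker lists for the cell types of the testis and its surroundings were summed over genes, with the probe set of highest mean signal for each gene. Sertoli markers had 6 of 7 genes on the array, with a summed signal from 4819.7 to 6213.9 in vinclozolin and from 5696.2 to 6065.5 in control arrays. Within generations the vinclozolin sums were the lower in F1 and F3 and the higher in F2, without overlap. In the mean, 3 of the 8 tested Sertoli probe sets were lower and 0 were higher. All 5 peritubular and smooth muscle markers were on the array, and their summed signal was lower, from 793.9 to 974.0 in vinclozolin against 1074.9 to 1099.9 in control arrays. These ranges did not overlap. Acta2, smooth muscle actin, was the 1 of these called (−0.68 ± 0.06 in the mean; adjusted p = 8.29e-07). Its signals ran from 254.3 to 335.3 in vinclozolin and from 457.6 to 492.7 in control arrays. Tagln, Cnn1, Des and Myh11 gave −0.06, −0.13, 0.08 and −0.12 in the mean and were not called. The part of peritubular cells in the collagen and laminin values was not tested. Leydig markers, all 6 on the array, summed to 12256.1 to 14532.5 in vinclozolin and 11273.0 to 11931.2 in control arrays. The Leydig ranges did not overlap either, with the vinclozolin arrays higher. In the mean, 4 of their 8 tested probe sets were higher and 2 were lower. Interstitial stroma markers, 6 of 7, summed to 4539.7 to 5109.4 in vinclozolin and 4938.5 to 5185.5 in control arrays. The vinclozolin sums were the lower in F1 (4839.7 to 4875.1 against 4938.5 to 4968.9) and in F2 (4539.7 to 4617.5 against 5043.7 to 5045.4). In F3 the stroma sums overlapped. In the mean, 5 of the 8 tested stroma probe sets were lower and 1 was higher, where 19.2% of all were lower and 14.1% higher. Among markers of cells from outside the cords and stroma, those of striated muscle, 7 of 8, summed to 385.1 to 620.5 in vinclozolin and 363.1 to 425.7 in control arrays. Schwann cell markers, 3 of 5, summed to 65.2 to 130.6 in vinclozolin and 127.3 to 161.8 in control arrays. Of their 3 tested probe sets, 1 was higher and 2 were lower in the mean. The higher probe set, of Mbp, was not the one used in the sum. It had 279.5 and 106.4 in F1 vinclozolin against 17.3 and 22.8 in F1 control testes. Its difference was 2.40 in F1 (adjusted p = 5.09e-05) and 1.13 in the mean (adjusted p = 0.00014). Kit, the 1 of 5 germ cell markers on the array, had signals of 2.5 to 61.4 in vinclozolin and 61.9 to 80.1 in control arrays, without overlap. The part of these cells in the values above was not tested.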

How the data were processed

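Total RNA of embryonic rat testes was hybridised to 12 Affymetrix rat arrays. The authors deposited 1 signal intensity for each probe set and array on a linear scale, and near-equal trimmed means show a global scaling; the summarisation software was not given in the sources used here. Gene symbols came from the platform annotation, and all 72 gene IDs of the members kept their symbol in the current RefSeq table. After 57 control probe sets were set aside, a filter took out 9313 probe sets, those whose mean log2 value fell in the lowest 30% (signal under 14.8). The array medians spanned 0.157 on the log2(value + 16) scale, and the values were used as deposited. limma 3.58.1 in R 4.3.3 fitted 6 group means on 21729 probe sets (lmFit, eBayes with trend; 6 residual and 8.97 prior degrees of freedom), with Benjamini-Hochberg adjustment over all of them, and was tested on simulated data. Groups of 2 share 1 estimate of spread, and an exact permutation test of 2 against 2 arrays cannot go below p = 0.333. Exact permutation tests, 2-sided, used scipy 1.17.1, with splits within generations for pairs of probe sets. The number of arrays limits the precision.

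Members and lists were chosen with earlier results of these data known. In each comparison the text names all called members, up to 10 in each direction, and the 2 genes of each class with the brightest probe set. It gives every tested probe set of these members, and of each other list up to 4 called genes. The remaining members are named to account for them. The pair tests, array weights and the beta-actin covariate for single genes were chosen after seeing the data. Alternatives changed the pseudocount, the filter, the scaling, the covariates and the arrays used. Replicate numbers did not pair the samples: over 15 pairs of groups, the correlation of replicate 1 minus replicate 2 ran from −0.093 to 0.068. Promoters came from RefSeq's table for GRCr8, which held 41 of the member genes. No coordinates of the probe sets were used.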

Additional observations from a re-analysis of the deposited data

Results flagged for a closer look

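The lineage difference of 2 collagen and laminin probe sets depended on generation by limma's F test across all probe sets. For Lamb2 (adjusted p = 0.0155), the difference was 0.20 in F1, 0.13 in F2 and −0.60 in F3, and all arrays of the vinclozolin lineage lay above their controls in F1 and F2 and below them in F3. For Col27a1 (adjusted p = 0.0231), it was 0.56 in F1, 0.27 in F2 and −0.49 in F3, with the same order of arrays. The count of such members was 0 without F1 control replicate 1, F3 vinclozolin replicate 2 or either F3 control array, with 4 to 9 at an unadjusted p under 0.05, and it was 15 without F1 vinclozolin replicate 1.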

How the results depend on the processing

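Counts below are collagen and laminin probe sets called by limma. Leaving out 1 array at a time gave 4 to 18 in F1, 2 to 17 in F2, 0 to 12 in F3, 12 to 24 in the mean of the generations and 0 to 15 for dependence on generation. Fits to the 4 arrays of a generation alone found 4 calls in F1, 13 in F2 and 14 in F3. Array weights gave 13 in F2 and 15 in F3, quantile normalization 5 in F3, median centring 13 in F2 (5 lower, 8 higher), and no filter 1 for dependence on generation. With the replicate block the counts were 11 in F1, 8 in F2, 3 in F3, 15 in the mean and 2 for dependence on generation, which kept every call made without the block and added Col4a5 in F1. No member was called among the control groups under any alternative, with at most 5 at an unadjusted p under 0.05.

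With the beta-actin ratio as a covariate the counts were 0 in F1, 0 in F2, 0 in F3, 0 in the mean and 0 for dependence on generation. The log2 difference then turned positive for these probe sets: Lamc1 1370993_at to 1.15 in F1, 0.77 in F2 and 0.74 in the mean, Col4a1 1373245_at to 0.57 in F1 and 0.37 in the mean, and Col4a1 1372439_at to 0.83 in F1 and 0.60 in the mean. So did Col5a1 1369955_at, to 0.69 in F1 and 0.32 in the mean, Col1a1 1370864_at, to 0.56 in F1, Col8a2, to 0.14 in F2 and 0.20 in the mean, and Lamc3, to 0.082 in the mean. None of these was called, and the ratio did not overlap between the lineages. The cause of the other changes was not tested. Dim probe sets are limited by the offset of 16, and 18 members lay below the filter, with signals from 0.4 to 24.1.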
